A study of Mus musculus with 2 samples.

Results

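Dense autosomal windows are stretches of the mouse genome in which many nucleosomes were called by MNase-seq. They were taken as windows of 100 kb, counted from position 1, that held 260 or more called nucleosomes in 2 lists together, on the autosomes other than chromosomes 8 and 12. In all, 1069 windows met the limit, out of 21582 windows with a call on these 17 autosomes and 25634 in the whole series. Windows with 100 to 150 calls on the same autosomes, 3855 in number, serve as the comparison.

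Nucleosomes were mapped in 1 library of mouse embryonic stem (ES) cells treated with 0.8 µM tamoxifen and in 1 library of cells given ethanol as the vehicle. All cells were Brg1fl/fl and carried Actin-CreER, a Cre recombinase under an actin promoter that tamoxifen activates. They were grown in serum with LIF, kept with tamoxifen or ethanol for 24 hours and harvested after another 48 hours in fresh medium. DNA of mononucleosome size from nuclei digested with 12 U of MNase was sequenced. The tamoxifen list held 1424844 calls and the ethanol list 1300009. The number of reads behind them is unknown. As each group has 1 library, no tests and no replicate check were possible, and intervals are 95% and cover counting error only. Excision at Smarca4, the gene of Brg1, was not analysed here.

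Brg1 drives esBAF, a SWI/SNF-type remodeling complex that ES cells use to slide or evict nucleosomes at the expense of ATP. Micrococcal nuclease cuts the linker DNA between nucleosomes, and a call marks a place where the protected fragments gathered. A nucleosome that takes up the same place in many cells gives a sharp pile of fragments, while one whose place varies from cell to cell may give no call. Where successive nucleosomes keep a regular distance, the distances between calls peak at multiples of the nucleosome repeat length.

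The windows made up 4.95% of the windows with a call on the 17 autosomes, and held 13.8% of their tamoxifen calls and 14.7% of their ethanol calls. A window held a median of 292 calls (quartiles 274 and 317, highest 545), against 84 over all windows with a call on these autosomes. In single libraries the members held 123 to 272 tamoxifen calls, with a median of 149, and 116 to 273 ethanol calls, with a median of 144. A total of 436 members had 300 or more calls and 14 had 400 or more. At the limit itself, 21 windows had exactly 260 calls and 19 windows just outside had 1 call fewer. The mean numbers of tamoxifen and ethanol calls were 134.8 and 125.2 in the 21 windows just inside, and 134.1 and 124.9 in the 19 just outside. The sharing of calls described below was also close, at 42.9% of tamoxifen calls just inside and 41.2% just outside, so the limit cuts through a continuum. A nucleosome called in both libraries counts as 2 calls. Leaving out ethanol calls within 20 bp of a tamoxifen call, the dense windows held 233.2 places per window on average and the comparison windows 98.8. Calls of either list covered 24.1% of the bases of the dense windows and 10.7% of those of the comparison windows.

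The members were spread unevenly over the autosomes. Chromosome 2 had 143, chromosome 5 had 137, chromosome 4 had 132 and chromosome 11 had 108, which together are 48.6% of all members. Chromosome 3 had 5, chromosome 18 had 12 and chromosome 14 had 13. As a share of the windows of the chromosome, members ran from 0.319% on chromosome 3 to 9.21% on chromosome 5. Chromosomes 11, 15 and 4 followed, with 9.08%, 8.86% and 8.64%. For scale, on chromosomes 8 and 12, which the selection left out, 30.4% and 25.5% of the windows reached the same number of calls.

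Along the chromosomes the members leaned towards the distal end. Of the 1069 members, 572 (53.5%) had their centre beyond 66.7% of the distance from position 1 to the last call, and 253 (23.7%) lay in the last 10%. Of the comparison windows 36.4% and 11.9% did so. This was a matter of single chromosomes. On chromosome 15 all 89 members lay beyond that point and on chromosome 4 it was 94.7%, whereas on chromosomes 3, 13 and 14 it was 0%, on chromosome 10 it was 1.82% and on chromosome 17 it was 4.11%.

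Most members adjoined another member. There were 276 single windows and 205 runs of 2 or more adjoining windows, which held 793 members or 74.2%. Runs of 5 or more numbered 53 and held 398 members, and 8 runs of 10 or more held 121. The windows next to a run or single member, counted at each end, had a median of 222 calls (quartiles 191 and 243.5). Of these 959 borders 69.0% had 200 or more calls and 3.23% had fewer than 100. The median was still 212 calls 5 windows out, although windows farther than 1 step away may be members of another run. Dense windows were thus mostly the crests of broader call-rich stretches.

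**Figure D1:**
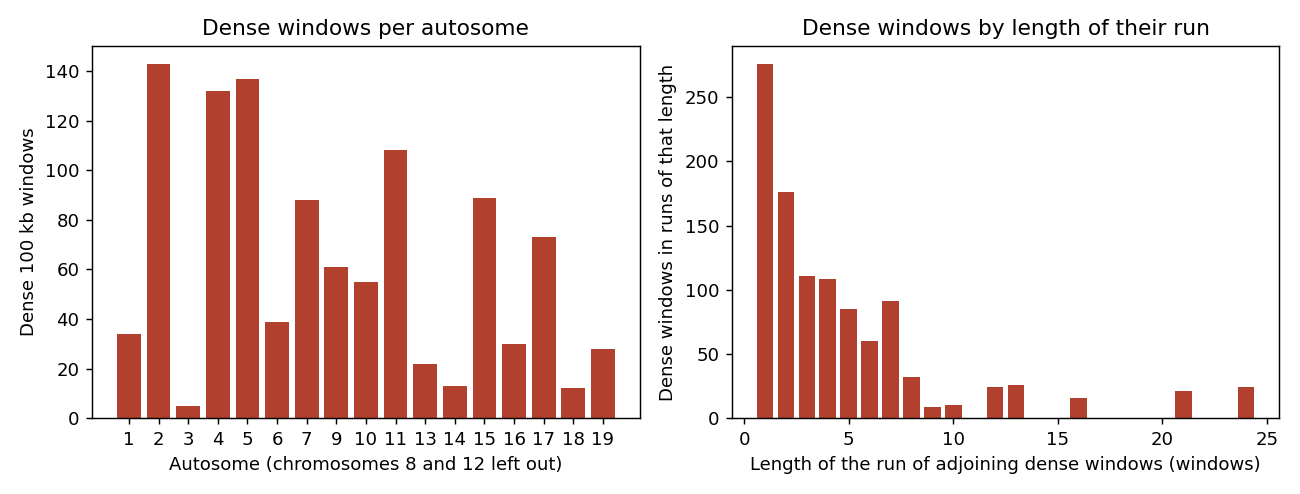
Left, bars give the number of dense 100 kb windows on each of the 17 autosomes, from 5 on chromosome 3 to 143 on chromosome 2. Right, bars give the number of dense windows that lie in runs of each length, from 276 single windows to the longest run of 24 windows.

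The 5 longest runs lay on chromosomes 11, 10, 5 and 15. Coordinates are on mm9, the build of the lists. The longest spanned 24 windows on chromosome 11, from 117600001 to 120000000, with 3923 tamoxifen and 3848 ethanol calls. A run of 21 windows on chromosome 10, from 79000001 to 81100000, held 3473 tamoxifen and 3380 ethanol calls. Both ends of this run were steep, since the windows before and after it had 87 and 98 calls. On chromosome 5 a run of 16 windows reached from 35300001 to 36900000 and a run of 13 from 139500001 to 140800000. The last of the 5, 13 windows on chromosome 15 from 83400001 to 84700000, was bordered by windows of 257 and 242 calls, just under the limit. Together the 5 runs hold 87 windows, or 8.14% of the members. Their median scores lay between 90.5 and 95.3 in the tamoxifen list and between 90.5 and 98.2 in the ethanol list, which is the level of ordinary members.

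Within a member the calls were spread over the whole window. When each window was divided into 10 parts of 10 kb, 1007 of 1069 members (94.2%) had 10 or more calls in every part, against 2.85% of the comparison windows. The poorest part of a member had a median of 18 calls and the richest a median of 41. In 8 members a single part held over 20% of the calls. The longest distance between neighbouring centres of the joint lists had a median of 2860 bp in the dense windows and 6175 bp in the comparison windows. This difference, too, follows in part from the number of calls. Only 3 members held a gap of 10000 bp or more, and the longest, 50230 bp, lay in the window from 47600001 to 47700000 on chromosome 6. That window nevertheless held 170 tamoxifen and 172 ethanol calls.

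The score that the authors gave each call, whose definition is not given in the sources used here, was higher in dense windows. Within the tamoxifen list its median was 92.2 in dense windows and 82.7 in comparison windows, 1.11 times as high. The corresponding medians of the ethanol list were 94.0 and 82.7, 1.14 times as high. The order was the same on 17 of 17 autosomes in either list. When each whole list was divided by score into 4 classes of about equal size, 29.6% of the tamoxifen calls of dense windows fell into the highest class and 20.99% into the lowest, against 21.9% and 26.4% in comparison windows. The maximum score, 3250, was reached by 296 of the tamoxifen calls of dense windows (0.182%, Wilson interval 0.162 to 0.204%) and by 283 of the ethanol calls (0.180%, 0.160 to 0.202%). In the comparison windows 0.0183% and 0.0176% of the calls did so. Calls in dense windows were slightly narrower, with mean widths of 109.83 bp with tamoxifen and 109.86 bp with ethanol, against 113.38 and 113.47 bp in comparison windows.

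The calls at the maximum score came from a small group of members that stood apart from the rest. In 19 members the median score was 130 or more in at least one of the lists, a limit chosen after the scores had been seen. The lowest of them had a median of 152 in the tamoxifen list, while the other 1050 members lay between 76.7 and 127.75. The 19 members held 292 of the 296 tamoxifen calls and 276 of the 283 ethanol calls at the maximum. In the other 1050 members 0.0025% of the tamoxifen calls and 0.0045% of the ethanol calls had the maximum score. By the same limit 11 of the 3855 comparison windows were high. These were kept in the shares of 0.0183% and 0.0176% given above, so those shares cannot be ranked against the 1050 members.

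Of the 19 high-scoring members, 7 lay on chromosome 1, 3 each on chromosomes 4 and 5, and 1 each on chromosomes 2, 6, 7, 9, 11 and 17. Those on chromosomes 9, 11 and 17 began at 3000001 and were the first windows with a call on their chromosomes. No other member was the first window of its chromosome. On chromosome 1, 4 of them adjoined each other from 84900001 to 85300000, with 160, 226, 207 and 256 tamoxifen calls and 150, 208, 182 and 239 ethanol calls. In tamoxifen calls these windows ranged from little above the median member to among the highest of all.

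The 10 members with the most calls show both kinds. Most calls were found on chromosome 1, from 90100001 to 90200000, with 272 tamoxifen and 273 ethanol calls, or 545 together. Its median scores were 305.6 and 277.8 in the tamoxifen and ethanol lists. Next came chromosome 11, from 3000001 to 3100000, with 262 tamoxifen and 261 ethanol calls. More than any other member it was at the ceiling of the score, since 177 of these tamoxifen calls and 160 of these ethanol calls had the maximum, so that the median was 3250 in each list. Windows from 85200001 and from 87400001 on chromosome 1 ranked 3 and 5 with 495 and 462 calls, and rank 6, from 77700001 on chromosome 2, had 448 calls and median scores of 842.05 with tamoxifen and 719.05 with ethanol. With rank 10, from 85000001 on chromosome 1, 6 of the 10 were of the high-scoring kind. The other 4 had median scores of 95.2 to 126.6 in the tamoxifen list and 98.2 to 125.45 in the ethanol list. They began at 13500001 and 56500001 on chromosome 17, at 140500001 on chromosome 5 and at 70000001 on chromosome 14, with 465, 444, 436 and 436 calls. The window on chromosome 5 belongs to one of the long runs described above.

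High-scoring members also shared more of their calls between the libraries. An ethanol partner within 20 bp was found for 66.5% of their tamoxifen calls, whereas 43.0% did in the other 1050 members. Window by window the shares were 50 to 87.8% in the 19 and 28.3 to 61.2% in the others, so the ranges overlap. The highest share, 87.8%, belonged to the window at the start of chromosome 11. High score and high sharing thus came together in the 19 members as a group. Whether window score and sharing go together among the other 1050 was not computed. Whether copy number or read mapping has a part in this was not tested.

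**Figure D2:**
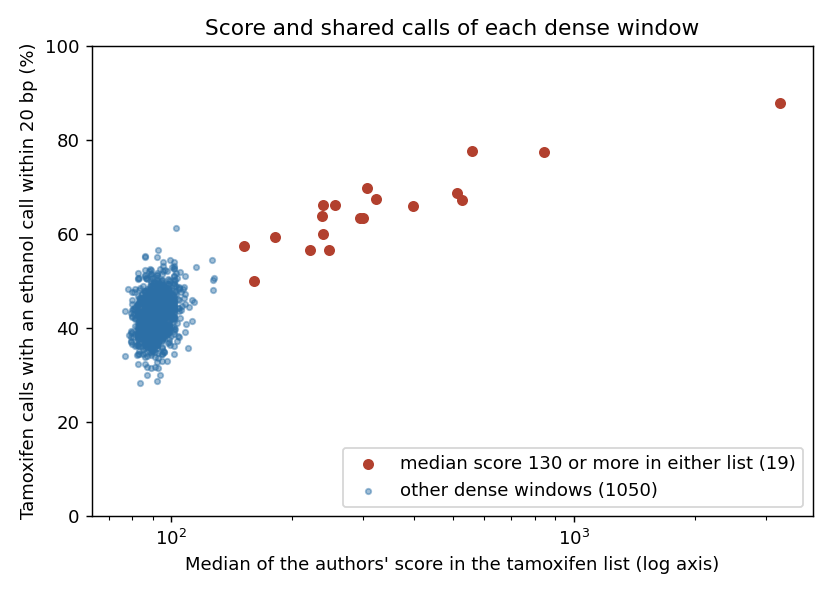
Each point is 1 of the 1069 dense windows, placed by the median of the authors' score in the tamoxifen list (log axis) and by the share of its tamoxifen calls that have an ethanol call within 20 bp (%). The 19 windows with a median score of 130 or more in either list lie to the right of the cloud of 1050 others, with shares of 50 to 87.8%.

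Whether nucleosomes of these windows were called at the same places after tamoxifen was examined by matching calls between the libraries. Of the tamoxifen calls in dense windows, 43.56% (Wilson interval 43.31 to 43.80%) were matched by an ethanol call no more than 20 bp away. In comparison windows it was 38.87% (38.68 to 39.06%). The share was higher in dense windows on 17 of 17 autosomes. Crowding alone brings more partners. In dense windows 6.62% of all possible centre positions lay within 20 bp of an ethanol centre, and 2.65% in comparison windows. The dense windows thus stood 4.68 points higher in sharing and 3.98 points higher in this background. Seen from the other list, 45.06% (44.82 to 45.31%) of the ethanol calls of dense windows and 43.22% (43.02 to 43.43%) of those of comparison windows had a tamoxifen partner. That is a difference of 1.84 points, beside 3.91 points in the background. Sharing beyond the background was therefore not clearly greater in dense windows.

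Within classes of score, the order of dense and comparison windows was not the same throughout. In the lowest class of scores 26.4% of the tamoxifen calls were shared in dense windows, against 22.8% in comparison windows, and in class 3 it was 44.9% against 42.6%. In the highest class the order was turned, with 61.8% (61.4 to 62.3%) in dense windows and 62.8% (62.4 to 63.2%) in comparison windows. For ethanol calls the share was 28.7% in dense windows and 28.3% in comparison windows in the lowest class, with overlapping intervals, and 62.4% and 64.0% in the highest. In classes 2 to 4 the ethanol share was lower in dense windows, although the intervals overlap in class 2. Within a class of score, dense windows differed from comparison windows by at most 3.62 points among tamoxifen calls, less than the 3.98 points between their backgrounds, and 1.54 among ethanol calls. From the lowest to the highest class of dense windows, sharing differed by 35.4 points among tamoxifen calls and 33.8 among ethanol calls.

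**Figure D3:**
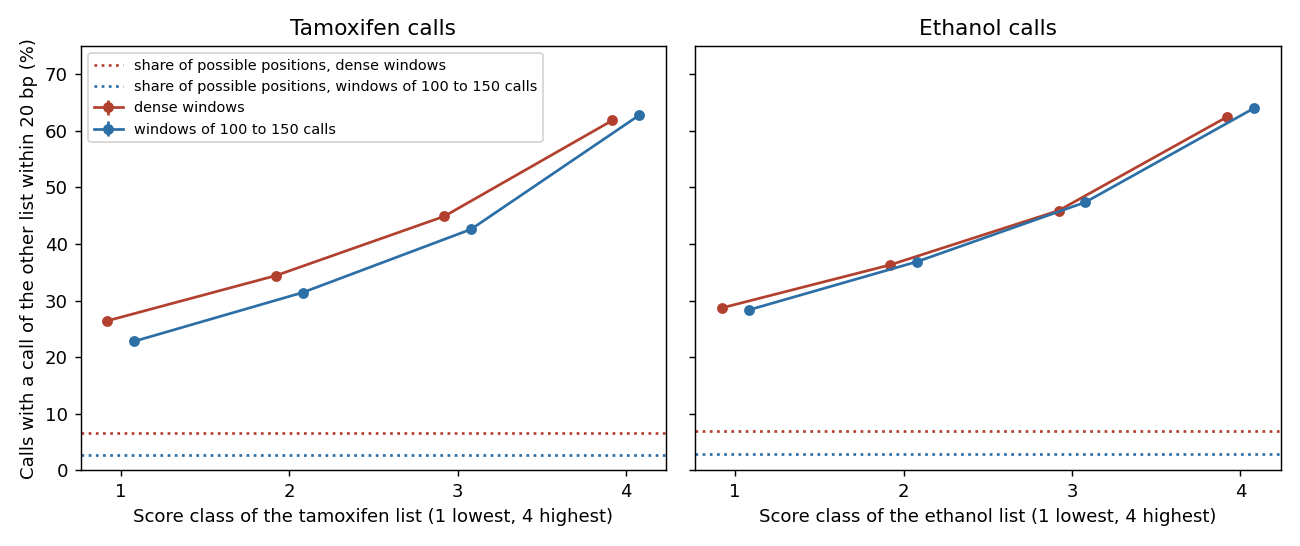
Points give the share of tamoxifen calls (left) and ethanol calls (right) with a call of the other list within 20 bp (%), by class of score within the own list, with Wilson intervals that are mostly smaller than the points. Dotted lines give the share of all possible centre positions that lie within 20 bp of a call of the other list, 6.62% in dense windows and 2.65% in comparison windows for tamoxifen calls. Shares climb with score in both kinds of window.

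Calls that had a partner farther off were also commoner where calls were dense, as the larger number of calls entails. No background was computed for these distances, so they describe the windows and do not show more matching. In dense windows 21.3% of the tamoxifen calls had their nearest ethanol call 21 to 80 bp away and 12.7% had it 81 to 200 bp away, against 17.1% and 7.38% in comparison windows. No ethanol call lay within 200 bp of 22.4% of the tamoxifen calls in dense windows and of 36.7% in comparison windows. Seen from the ethanol list these last shares were 20.3% and 30.3%. How much of the unmatched calls 2 ethanol libraries would show between them is not known.

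Relative to the whole lists, the dense windows held fewer calls after tamoxifen. They contained 162819 tamoxifen and 157367 ethanol calls, which is 3.46% more with tamoxifen, whereas the tamoxifen list as a whole was 9.60% longer. Scaled to all calls, the log2 ratio of tamoxifen over ethanol was -0.08 (exact interval -0.09 to -0.07) in dense windows. In comparison windows, with 252029 tamoxifen and 226659 ethanol calls, it was 0.02 (0.01 to 0.03). The ratio differed gradually with the number of calls over the 17 autosomes. It was 0.07 (0.06 to 0.08) in windows of 50 to 99 calls and -0.06 (-0.06 to -0.05) in the 1874 windows from 200 calls up to the limit of the members. A lower ratio was thus not particular to the dense windows. Members were chosen by the sum of both lists, so these values describe them and are no test. On 17 of 17 autosomes the log2 ratio of the dense windows was below 0 and below that of the comparison windows. It ran from -0.13 on chromosome 14 to -0.03 on chromosome 3, and its interval lay below 0 on 15 of them. The autosomes all come from the same pair of libraries, so they do not stand for replicates.

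The difference was small and spread over most members. The log2 ratio was below 0 in 845 of 1069 members (79.0%) and in 44.5% of the comparison windows. Over the members it averaged -0.08 with an SD of 0.10 and ranged from -0.44 to 0.30. Beyond a log2 ratio of 0.32 in either direction, the limit set for naming windows as different, 10 members were lower with tamoxifen (0.935%), where 1.94% of the 9441 windows with 100 or more calls on the 17 autosomes were. None of the members was higher past this limit, where 2.35% of those 9441 windows were. A window with fewer calls passes a fold limit by counting noise more readily, so these shares cannot be set against each other as signs of stability. As the members averaged -0.08, the lower limit also lay nearer to their centre than the upper limit. Among 588 pairs of adjoining members the Pearson correlation of the log2 ratios was 0.07, as a description over windows of the same libraries, many of which enter 2 pairs.

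**Figure D4:**
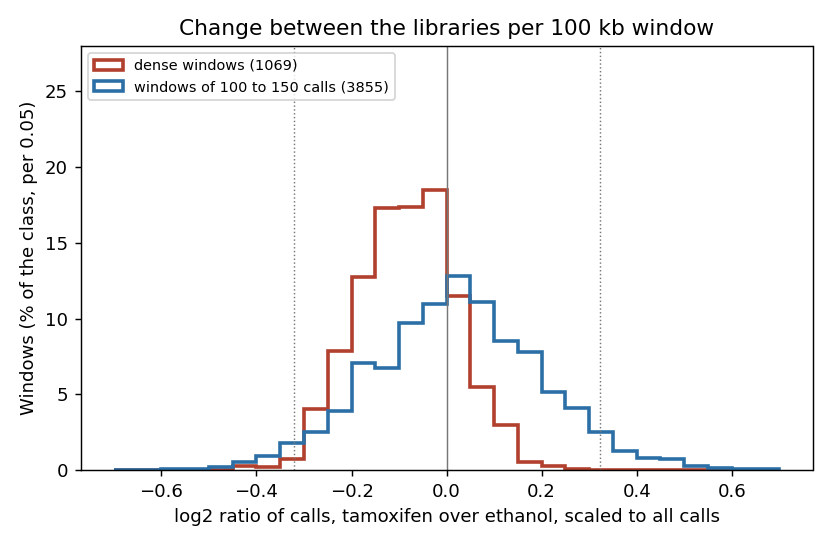
Lines give the distribution of the log2 ratio of calls, tamoxifen over ethanol and scaled to all calls, in steps of 0.05, as a percentage of the 1069 dense windows and of the 3855 windows with 100 to 150 calls. Dotted lines mark 0.32 in each direction. The dense windows are centred at -0.08 and the comparison windows at 0.02.

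The members with the lowest and highest ratios were extremes of many windows, and their intervals do not allow for that selection. The lowest was on chromosome 15, from 74300001 to 74400000, with 165 tamoxifen and 204 ethanol calls and a log2 ratio of -0.44 (exact interval -0.74 to -0.14). It was followed by the window from 153800001 on chromosome 4, with 137 tamoxifen and 169 ethanol calls, and by the one from 167500001 on chromosome 2, with 137 and 168. Of the 10 members that were lower past 0.32, 4 lay on chromosome 4, none adjoined another and none was of the high-scoring kind. The highest ratio was that of the window from 147900001 on chromosome 4, with 159 tamoxifen and 118 ethanol calls, a log2 ratio of 0.30 (-0.05 to 0.65). The next 2 places went to adjoining windows on chromosome 2, from 32600001 to 32800000, with 159 tamoxifen calls each and 122 and 126 ethanol calls. The intervals of the 5 highest ratios include 0, and those of the 5 lowest do not. The members as a whole averaged -0.08, so a comparison with 0 favours the low side and shows no difference between the extremes.

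The lower ratio was seen for weak and strong calls alike. Taking each class of score against the same class of the whole list, the log2 ratio in dense windows was -0.07, -0.06, -0.09 and -0.10 from the lowest to the highest class. The values for comparison windows were 0.01, 0.02, 0.02 and 0.03. Within the dense windows it was -0.08 (-0.09 to -0.06) in the 633 members with fewer than 300 calls and -0.09 (-0.11 to -0.08) in the 436 with 300 or more. In the 19 high-scoring members it was -0.05 (-0.11 to 0.02). At the same number of calls on chromosomes 8 and 12, 682 windows had a log2 ratio of -0.05 (-0.07 to -0.04). Read depth is unknown, and its part in the difference was not tested.

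Nucleosomes in dense windows were called at closer distances, as their number entails. The median distance from one centre to the next was 445 bp with tamoxifen and 460 bp with ethanol in dense windows, and 1005 and 1110 bp in comparison windows. Successive centres 140 to 400 bp apart, called neighbours here, made up 44.1% (Wilson interval 43.9 to 44.4%) of the tamoxifen distances and 43.2% (43.0 to 43.4%) of the ethanol distances in dense windows. In comparison windows the shares were 21.1% and 19.8%. This range takes in the first and the second peak of the pair distances described below, so an uncalled nucleosome may lie between such neighbours. The tamoxifen library was thus 0.92 points (0.58 to 1.26) above the ethanol library in dense windows, and the order was the same on 15 of 17 autosomes. After the tamoxifen list had been thinned at random to the length of the ethanol list, which by its construction lengthens distances, the order turned to -2.62 points. Among calls that reached the median score of their list the difference was 0.0035 points, so no order of the libraries can be given. The mean distance between neighbours was 254.1 bp with tamoxifen and 253.2 bp with ethanol in dense windows, and 258.4 and 255.9 bp in comparison windows. It mixes distances of both peaks and is not a repeat length.

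The regular spacing of nucleosomes was visible in the distances between all pairs of calls, in both libraries and both kinds of window. In dense windows the pairs peaked at 190, 380, 580, 765 and 960 bp with tamoxifen and at 190, 385, 570, 765 and 995 bp with ethanol. The slope over these 5 peaks gave repeat lengths of 192.5 bp with tamoxifen and 199 bp with ethanol, against 194.5 and 190 bp in comparison windows. The ethanol value rests on a flat peak at 995 bp. With the first 3 peaks alone the difference in dense windows turned to 5 bp longer with tamoxifen, so no order of the repeat lengths can be given.

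The contrast between peak and trough differed more than the period. The periodicity contrast divides the pairs at 350 to 410 bp, near 2 repeats, by the pairs at 260 to 320 bp, which fall between repeats. In dense windows it was 1.645 (interval 1.609 to 1.681) with tamoxifen, from 21367 over 12991 pairs, and 1.471 (1.439 to 1.504) with ethanol, from 19108 over 12990 pairs. In comparison windows it was 1.508 (1.470 to 1.547) and 1.388 (1.349 to 1.427). The tamoxifen value was 1.118 times (1.084 to 1.154) the ethanol value in dense windows and 1.087 times (1.046 to 1.129) in comparison windows, and these intervals overlap. In dense windows it was above 1 on 15 of 17 autosomes, with an interval wholly above 1 on 6 of them. It was below 1 on chromosomes 3 and 19, where the intervals include 1. Pairs share calls, so the intervals are too narrow.

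By this contrast the spacing was more regular in dense windows than in comparison windows, by 1.090 times (1.054 to 1.128) in the tamoxifen list and 1.060 times (1.023 to 1.099) in the ethanol list. The order held on 13 of 17 autosomes in each list. It depended on the distance examined. Taken one repeat farther out, with pairs 540 to 610 bp over pairs 450 to 520 bp apart, the dense windows stood at 0.981 times the comparison windows with tamoxifen and at 0.971 times with ethanol. Among the members the 19 high-scoring windows had the lower contrasts, 1.415 (1.266 to 1.582) with tamoxifen and 1.269 (1.130 to 1.425) with ethanol, against 1.655 (1.618 to 1.692) and 1.479 (1.446 to 1.513) in the other 1050. Their interval does not overlap that of the others in either list, although these intervals are too narrow.

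**Figure D5:**
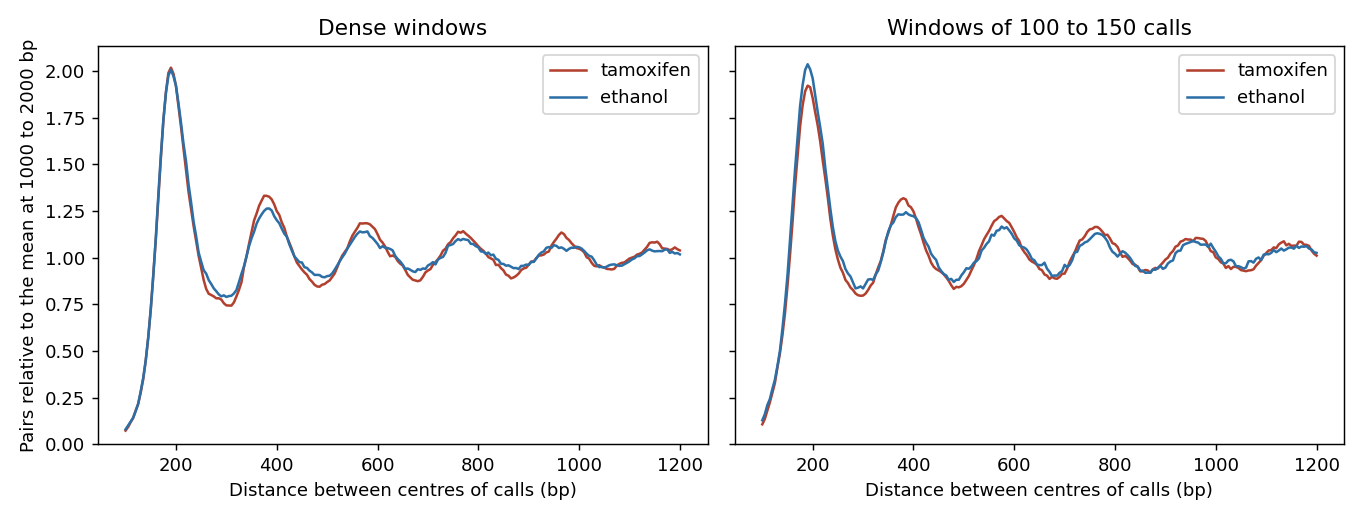
Lines give the number of pairs of calls by the distance between their centres (bp), smoothed over 25 bp and relative to the mean number from 1000 to 2000 bp, for tamoxifen and ethanol, in dense windows (left) and in windows of 100 to 150 calls (right). The first peak is at 190 bp in all 4 curves. The contrast between the second peak and the trough before it is higher with tamoxifen in both kinds of window.

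Arrays, in which 4 or more calls follow each other at steps of 150 to 230 bp, were frequent in dense windows. There were 1450 (Poisson interval 1376 to 1527) with tamoxifen and 1352 (1281 to 1426) with ethanol, or 8.91 and 8.59 per 1000 calls. Comparison windows had 394 and 334, or 1.56 and 1.47 per 1000 calls. The ratio of tamoxifen over ethanol per 1000 calls was 1.04 (0.96 to 1.12) in dense windows, an interval that includes 1. It was 0.821 with the tamoxifen list thinned to the length of the ethanol list, which breaks runs by construction, and 0.999 among calls that reached the median score. At least 1 array was found in 771 members (72.1%) with tamoxifen and in 733 (68.6%) with ethanol, and in 565 members in both lists. No member held more than 10 in either list. Steps within arrays averaged 191.8 bp with tamoxifen and 192.3 bp with ethanol in dense windows.

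Distances of the length of 1 repeat were also more frequent in dense windows, which the larger number of calls entails in part. Of the distances in dense windows 21.1% with tamoxifen and 20.7% with ethanol lay between 150 and 230 bp, against 9.49% and 9.13% in comparison windows. A distance in this range was followed by another such distance in 23.5% of cases with tamoxifen and 22.9% with ethanol in dense windows. That is 1.11 times the share of such distances among all distances in each list. In comparison windows it was 12.5% with tamoxifen and 12.0% with ethanol, 1.32 and 1.31 times the share. Relative to how often such distances occurred at all, they followed each other less often in dense windows than in comparison windows, as a description of these counts.

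Part of the arrays lay at the same places in both libraries. In dense windows 321 of the 1450 tamoxifen arrays (22.1%, Wilson interval 20.1 to 24.3%) overlapped an ethanol array, and 322 of the 1352 ethanol arrays (23.8%, 21.6 to 26.2%) a tamoxifen array. Arrays of a list spanned only 0.880% of the bases of these windows with tamoxifen and 0.819% with ethanol. In comparison windows 16.5% (13.2 to 20.5%) of the tamoxifen and 19.2% (15.3 to 23.7%) of the ethanol arrays overlapped one of the other list. There the arrays spanned 0.0642% of the bases with tamoxifen and 0.0537% with ethanol. Both the overlap and this background were thus higher in dense windows, so the overlap does not show closer matching of arrays there. The share of bases is also only a rough background, since arrays have a length of their own.

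The longest arrays of the members had 9 calls with tamoxifen and 13 with ethanol. The ethanol array of 13 calls, spaced 182.9 bp on average, ran from 47599206 into the high-scoring window on chromosome 6 that also holds the longest gap, and 8 of its calls had a tamoxifen call within 20 bp. Of the 4 tamoxifen arrays of 9 calls, 2 lay in high-scoring windows, on chromosome 5 from 15126051 to 15127626, with scores of 133.9 to 1315, and on chromosome 11 from 3034686 to 3036251, with scores of 1410.5 to 3250. The other 2 were on chromosome 4 from 136765496 to 136767036, with scores of 54.5 to 229.2, and on chromosome 15 from 83568046 to 83569491, inside one of the 5 longest runs. An ethanol partner within 20 bp was found for 8 of the 9 calls of the array on chromosome 15, 7 on chromosome 11, 6 on chromosome 4 and 4 on chromosome 5. An ethanol array of 10 calls on chromosome 16, from 10868316 to 10869981, had 8 calls with a tamoxifen partner within 20 bp. Of the 3 ethanol arrays of 8 calls, those on chromosomes 10 and 17 were examined and had 4 such calls each. Most arrays were short, and 1070 of the 1450 tamoxifen and 987 of the 1352 ethanol arrays had just 4 calls.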

How the data were processed

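MNase-seq of 2 libraries, 1 per group, was analysed. The submitters' processing notes name Bowtie 0.12.9 and mm9. How the nucleosomes were called and scored is not given in the sources used here. For each library the authors deposited 1 list with the start, end and score of each called nucleosome. All coordinates step by 10 bp. A place without a call may still hold a nucleosome, and the depth in reads is unknown.

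Groups were taken from the sample titles. Centres were taken midway between start and end. The window classes, members and lists were chosen with earlier results of these data known. Ratios were scaled to all calls of each list, with exact Clopper-Pearson intervals. These intervals treat the calls of both lists as independent, although many places were called in both, so they do not measure the spread of the ratios exactly. Possible centre positions were counted on a grid of 5 bp. For repeat lengths, distances of up to 2000 bp between centres were put into bins of 5 bp, smoothed over 15 bp, and peaks were sought within 60 bp of multiples of 190 bp. Windows were named by rule, as the 10 with most calls, the 5 longest runs and the 5 highest and 5 lowest ratios, besides the high-scoring windows and longest arrays, which were added after their values were seen. No gene is named, because no annotation of mm9 was used here. Simulated calls tested the repeat length, and simulated counts tested the calling of windows with a known change. Matching, pairs, arrays and window membership were checked on a small known case. Scores, the periodicity contrast and the choice of windows by the sum of both lists were not simulated. Versions were Python 3.11.15, scipy 1.17.1, pandas 2.3.3, numpy 2.4.6 and matplotlib 3.10.9.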

Additional observations from a re-analysis of the deposited data

How the results depend on the processing

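Of 111 alternatives, 77 stayed within the main interval, or within 1.5 times for counts, and 27 moved beyond it without turning. For the repeat length the interval used for this was a fixed margin, -9 to -4 bp, and not a counting interval. No paired analysis was possible because there was only 1 library for each treatment. The alternatives without the 19 high-scoring members were chosen after seeing the data. Direction turned in 7 cases. The neighbour share was -2.62 points and the array ratio 0.821 after thinning the tamoxifen list, which breaks runs by construction, and the array ratio was 0.999 when only calls reaching the median score of their list were kept. The repeat length was 6 bp longer with tamoxifen for windows shifted by 50 kb and 5 bp longer over the first 3 peaks, against -6.5 bp. The contrast of dense over comparison windows was 0.981 with tamoxifen and 0.971 with ethanol at 540 to 610 over 450 to 520 bp. With calls reaching the median score, the log2 ratio was -0.10 and -0.12 relative to comparison windows, sharing 41.7%, the contrast ratio 1.155, the neighbour difference 0.0035 points and arrays 4.92 times those of comparison windows, where the main value is 5.70. At 300 or more calls there were 436 members, sharing 44.7%, 5.80 points above comparison windows, a repeat difference of -3 bp, arrays 7.14 times, and score ratios of 1.15 with tamoxifen and 1.16 with ethanol. The array ratios against comparison windows follow in part from choosing windows by their number of calls. Smoothing over 45 bp gave a repeat difference of -2 bp. Members lower past the limit numbered 5 in windows shifted by 50 kb and 0 past 1.5-fold. Sharing was 29.8% within 10 bp and 56.6% within 40 bp, 3.03 and 6.75 points above comparison windows. Neighbours within 300 bp differed by 0.37 points. Score ratios against windows of 150 to 200 calls were 1.07 with tamoxifen and 1.09 with ethanol. Without the 19 members, sharing was 43.0%, 4.15 points higher, and the score ratios were 1.11 with tamoxifen and 1.11 with ethanol. Apart from construction, the cause was not tested.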
